A study of Mus musculus with 86 samples.

Results

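Sham kidneys of mice given UNC569 were compared with sham kidneys of mice given DMSO. The comparison rests on 6 of the 86 samples of the series, 3 with UNC569 and 3 with DMSO, chosen by their labels for tissue and treatment, and all 6 have a column of expression values. The mice of both groups were wild type, had sham surgery in place of ureteral obstruction and received their agent by injection, per the labels. Strain, age, dose, number of injections and the time of day at which kidneys were collected are not given in the labels used here. The columns of values name the group but not which of its samples they hold. Libraries therefore carry the number of their column (0, 1 or 2), and nothing ties a library to a litter, batch or day. P-values measure the spread between libraries of a group, estimated over all 17 kidney libraries, obstructed ones included. Obstructed kidneys had unilateral ureteral obstruction, with 7 libraries for 8 samples with UNC569 and 4 with DMSO. They share the fit with sham kidneys, so they enter the spread and the choice of genes tested. Their own differences are described only where they show how sham kidney differs. The same holds for sham livers and sham lungs (3 libraries with UNC569 and 3 with DMSO in each organ).

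UNC569 is a small-molecule inhibitor of MERTK, a receptor tyrosine kinase of the TAM family (TYRO3, AXL, MERTK) through which macrophages and some epithelial cells take up dying cells. Several of the genes described here belong to the circadian clock. In mammals the activators BMAL1 (gene Arntl) and CLOCK or NPAS2 drive transcription of Per, Cry, Nr1d1, Nr1d2 and Dbp; PER and CRY proteins then block the activators, and NR1D1 and NR1D2 repress Arntl while RORA activates it. As a consequence Arntl and the Nr1d1 and Dbp messages peak at opposite times of day, in kidney as in other organs. The renal clock is known for the daily rhythm of tubular salt transport.

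Expression is given as FPKM (fragments per kilobase of transcript, scaled to the reads mapped in each library), as deposited, and differences are those of log2(FPKM + 1), UNC569 minus DMSO, with their standard error. This scale understates the change of genes with low levels. P-values come from limma and are adjusted by Benjamini-Hochberg over the 15338 genes tested, with a threshold of 0.05. The read depth behind the values is unknown, so no counting error can be given for low genes. All 6 libraries held kidney: Slc34a1, the phosphate transporter of proximal tubule, had 3004, 2001 and 2565 FPKM in UNC569 libraries and 2628, 2599.9 and 3219.8 FPKM in DMSO libraries, and Umod and Aqp2 were present in each. Spearman correlations over the genes tested were 0.961 to 0.970 among UNC569 libraries, 0.955 to 0.966 among DMSO libraries and 0.919 to 0.951 between the groups. UNC569 library 0 had a higher overall level than the other libraries, with a median-ratio scaling factor of 1.17 against 0.960 to 1.005 in the other 5. Summed mitochondrially encoded transcripts had 393645, 195825 and 215618 FPKM in UNC569 libraries and 230491, 195105 and 115910 FPKM in DMSO libraries. All 13 of these genes had positive differences, and 1 passed, near the 13.3% of all genes that were higher. The part of these transcripts in the scaling was not tested. DMSO libraries 0 and 2 held transcripts of liver that the other 4 nearly lacked, with Alb at 0.555, 0.917 and 1.09 FPKM in UNC569 libraries and 56.6, 1.57 and 56.2 FPKM in DMSO libraries 0, 1 and 2.

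Of the 15338 genes tested, 2033 (13.3%) were higher and 928 (6.05%) lower with UNC569, or 2961 (19.3%) in either direction. The 3 UNC569 libraries lay entirely above the 3 DMSO libraries for 3589 genes (23.4%) and entirely below them for 1872 (12.2%), or 35.6% in all. The median difference over all genes was 0.07. With each library rescaled by the median of ratios the median became -0.06, a shift above 0.1, and the calls became 1201 higher and 1659 lower, so that the share of higher calls was 42% in place of 68.7%. Differences near 0 therefore carry no direction, and lists are set beside the median of all genes. The total was 2860 under that rescaling, but it fell to 1781 without UNC569 library 2, to 1595 without DMSO library 1, to 1690 without DMSO library 2 and to 1283 when the 6 sham libraries were fitted alone. Leaving out 1 library gave 1074 to 2100 higher and 426 to 1073 lower calls, the background for list counts in those fits. This background was 901 higher and 382 lower with the 6 sham libraries alone. Of 141 calls among the genes followed by name or list, 62 missed the threshold in that last fit and 67 without DMSO libraries 0 and 2 together, which leaves 1 DMSO library. Without those 2 libraries the calls lost included Kdr, Flt1, Acta2, Pdk4, Egf, Igkc, Slc5a12, Slc6a19, Sult1a1, Xbp1 and Chac1 (adjusted p = 0.0524 to 0.185).

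**Figure D1:**
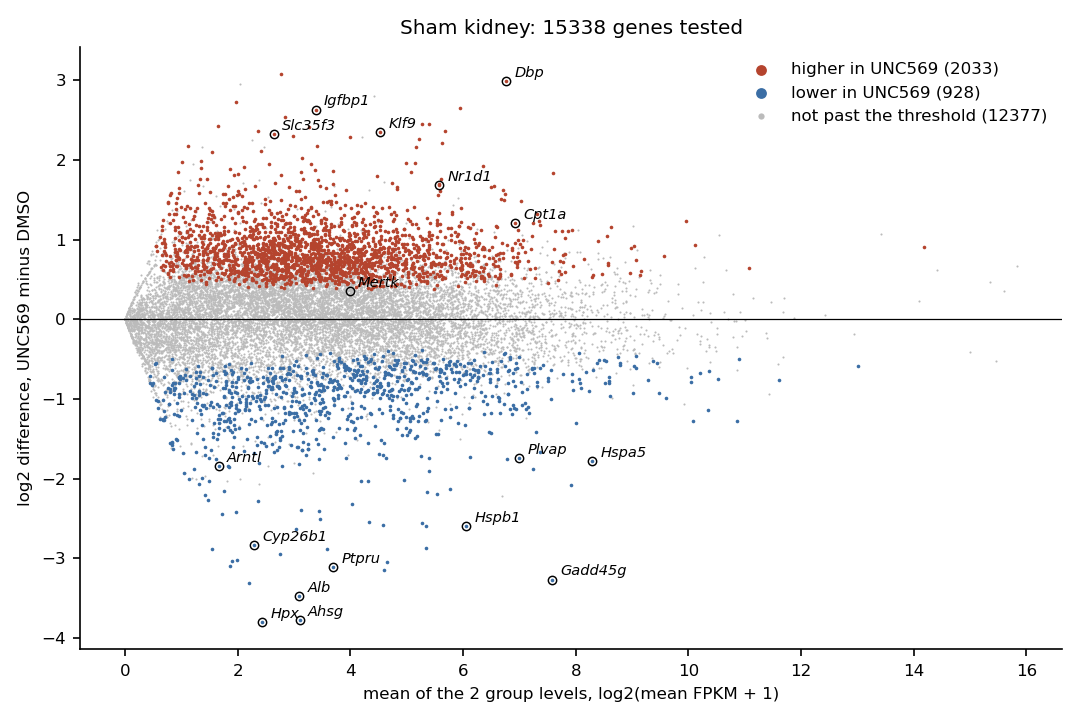
Log2 difference (UNC569 minus DMSO) against level in sham kidney, 1 point per gene of 15338 tested, with genes past the adjusted p threshold in red (2033 higher) and blue (928 lower). Dbp stands highest among the labelled genes and Gadd45g, Hspb1 and Hspa5 lie low at the right, while Mertk lies among the grey points.

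In the same fit, 38 genes (0.248%) were higher and 161 (1.05%) lower with UNC569 in obstructed kidney. The difference between the 2 responses, sham minus obstructed, passed for 2053 genes in the positive direction (13.4%) and 947 in the negative (6.17%). In sham liver and in sham lung no gene passed in either direction with limma (0 of 12986 and 0 of 15935). Before adjustment p was below 0.05 for 241 liver genes (1.86%), 1206 lung genes (7.57%) and 5133 genes of sham kidney (33.5%). A single library set the lung count, since 272 genes passed there without lung DMSO library 2. Smaller sets of lung calls appeared without lung DMSO library 1 (1 gene) and without lung UNC569 library 2 (3 genes).

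Of 25 clock genes listed, 24 were tested, and 11 were higher and 4 lower with UNC569, against 13.3% and 6.05% of all genes. The median difference of the 24 was 0.81. Clock itself was listed at 0 in every kidney library and is given no fold. In 15 clock genes all UNC569 libraries lay above all DMSO libraries and in 5 below, against 23.4% and 12.2% of all genes (35.6% in either direction). The list's summed level was 870.1 to 1145 FPKM with UNC569 and 402 to 444 FPKM with DMSO.

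**Figure D2:**
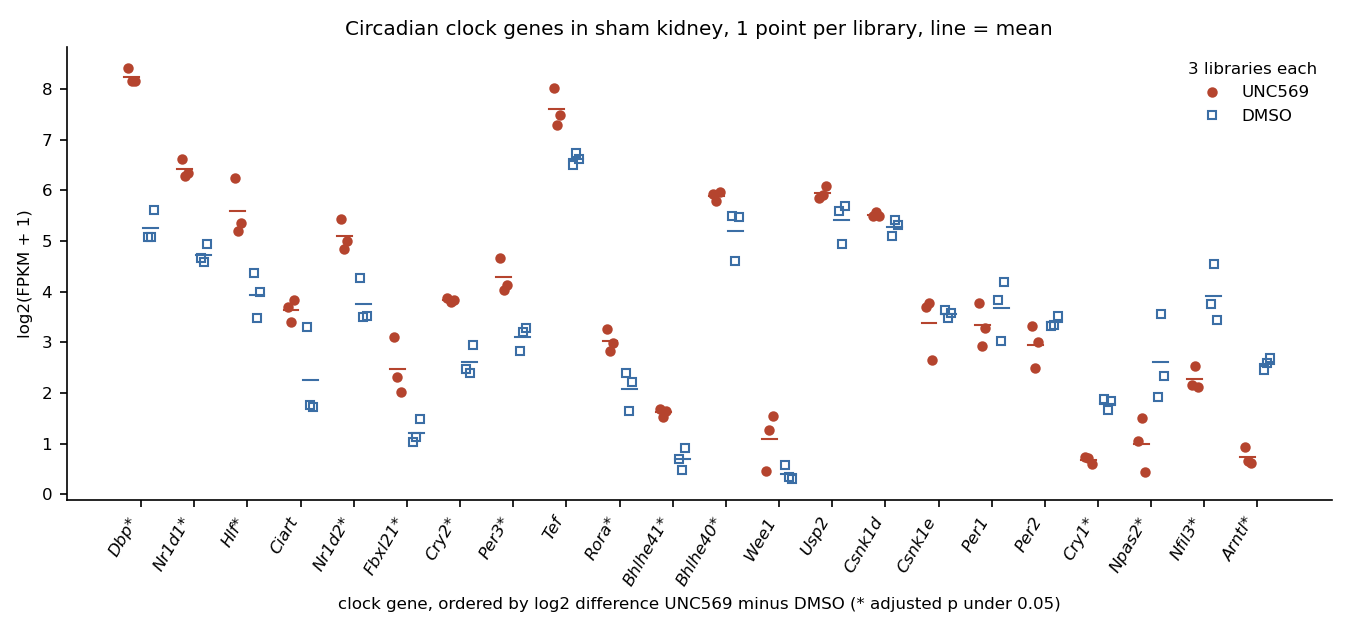
Level of 22 tested clock genes as log2(FPKM + 1) in the 3 UNC569 libraries (red circles) and the 3 DMSO libraries (open blue squares), genes ordered by their difference and the line giving the mean. Dbp, Nr1d1 and Hlf are high with UNC569 at the left end, and Cry1, Npas2, Nfil3 and Arntl are low with UNC569 at the right end.

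Among the activators, Arntl (ENSMUSG00000055116, GRCm38 chromosome 7, 113207465 to 113314126, plus strand) had 0.914, 0.571 and 0.527 FPKM in UNC569 libraries, against 4.46, 4.99 and 5.44 FPKM in DMSO libraries. No UNC569 library reached 1 FPKM and every DMSO library exceeded 4 FPKM (log2 -1.84 ± 0.31, adjusted p = 0.00107). Npas2, the partner of BMAL1 that can replace CLOCK, had 1.08, 1.85 and 0.348 FPKM in UNC569 libraries, against 2.8, 10.8 and 4.02 FPKM in DMSO libraries. The groups did not overlap and the difference was -1.60 (adjusted p = 0.0151), but DMSO library 1 stands well above its group, and the adjusted p was 0.0924 without that library and 0.0736 without UNC569 library 2.

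The period and cryptochrome genes, whose proteins block the activators, did not move as 1 group. Per3 had 24.5, 15.4 and 16.6 FPKM in UNC569 libraries, against 6.14, 8.22 and 8.69 FPKM in DMSO libraries. It was higher in every UNC569 library (log2 1.18 ± 0.30, adjusted p = 0.0133), with an adjusted p of 0.0550 without UNC569 library 0 and 0.134 without DMSO libraries 0 and 2 together. Per1 had 12.7, 6.66 and 8.77 FPKM in UNC569 libraries, against 13.3, 7.15 and 17.3 FPKM in DMSO libraries, and Per2 had 9.01, 4.62 and 7.06 FPKM in UNC569 libraries, against 9.02, 9.14 and 10.4 FPKM in DMSO libraries. The ranges of Per1 overlap, each UNC569 library of Per2 lay below the DMSO range, library 0 only just, and neither passed (adjusted p = 0.546 and 0.426). Cry2 had 13.6, 12.9 and 13.4 FPKM in UNC569 libraries, against 4.54, 4.27 and 6.75 FPKM in DMSO libraries. Cry1, its paralogue, had 0.669, 0.652 and 0.505 FPKM in UNC569 libraries, against 2.67, 2.15 and 2.57 FPKM in DMSO libraries. Both pairs of groups were apart, in opposite directions: Cry2 was higher (log2 1.23 ± 0.22, adjusted p = 0.00179) and Cry1 lower (log2 -1.10 ± 0.19, adjusted p = 0.00129) with UNC569.

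In the loop that controls Arntl, the repressor gene Nr1d1 (ENSMUSG00000020889, GRCm38 chromosome 11, 98767932 to 98775333, minus strand) had 96.9, 76.9 and 80.1 FPKM in UNC569 libraries, against 24.3, 23.1 and 29.6 FPKM in DMSO libraries. Its difference was log2 1.68 ± 0.21, adjusted p = 2.16e-04, and its mean level was 3.3 times that of DMSO libraries. Nr1d2, the second repressor, had 42.3, 27.9 and 30.8 FPKM in UNC569 libraries, against 18.4, 10.3 and 10.4 FPKM in DMSO libraries (log2 1.33 ± 0.24, adjusted p = 0.00168). For both genes the lowest UNC569 library exceeded the highest DMSO library. Rora, an activator of Arntl, had 8.64, 6.12 and 6.88 FPKM in UNC569 libraries, against 4.23, 2.13 and 3.63 FPKM in DMSO libraries. It was higher by 0.94 (adjusted p = 0.0141), with an adjusted p of 0.0524 without UNC569 library 0 and 0.0814 without DMSO library 1.

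The clock's output factors bind the D-box, where DBP, TEF and HLF activate and NFIL3 represses. Dbp (ENSMUSG00000059824, GRCm38 chromosome 7, 45705088 to 45710203, plus strand) had 343, 285 and 285 FPKM in UNC569 libraries, against 32.9, 32.6 and 48.1 FPKM in DMSO libraries. Every UNC569 library was above 280 FPKM and every DMSO library below 50 FPKM, which made Dbp the tested clock gene with the largest difference (log2 2.99 ± 0.51, adjusted p = 0.00121). Dbp overlaps Sphk2 on the opposite strand and the library kit does not mark strand, so reads of the overlap cannot be told apart. Hlf had 75.3, 35.7 and 39.8 FPKM in UNC569 libraries, against 19.6, 10.2 and 14.8 FPKM in DMSO libraries (log2 1.66 ± 0.30, adjusted p = 0.00165). Tef had 258, 155 and 179 FPKM in UNC569 libraries, against 89.3, 105 and 97.7 FPKM in DMSO libraries. Its groups do not overlap, but the difference of 0.98 missed the threshold (adjusted p = 0.0632). Nfil3, the repressor, had 3.48, 4.76 and 3.34 FPKM in UNC569 libraries, against 12.4, 22.3 and 9.82 FPKM in DMSO libraries. It was lower in each UNC569 library (log2 -1.64 ± 0.29, adjusted p = 0.00141), opposite in sign to Dbp and Hlf.

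Bhlhe40 and Bhlhe41 encode repressors that compete for the E-box of the activators. Bhlhe41 had 2.22, 1.86 and 2.13 FPKM in UNC569 libraries, against 0.6249, 0.386 and 0.882 FPKM in DMSO libraries (log2 0.92 ± 0.22, adjusted p = 0.00917). Bhlhe40 had 59.6, 54.4 and 61.9 FPKM in UNC569 libraries, against 44, 23.4 and 43.6 FPKM in DMSO libraries. It passed (log2 0.70 ± 0.20, adjusted p = 0.0193), but its adjusted p was 0.105 without DMSO library 1, 0.0655 without UNC569 library 2 and 0.0876 after rescaling by the median of ratios. Fbxl21, a ubiquitin ligase gene that controls CRY turnover, had 7.62, 4.001 and 3.04 FPKM in UNC569 libraries, against 1.05, 1.19 and 1.79 FPKM in DMSO libraries. It was higher in every UNC569 library (log2 1.27 ± 0.27, adjusted p = 0.00502). The casein kinase genes Csnk1d and Csnk1e, whose products phosphorylate PER, did not pass (adjusted p = 0.173 and 0.639).

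Ciart, a further repressor of the activators, had 12, 9.53 and 13.2 FPKM in UNC569 libraries, against 8.85, 2.41 and 2.3 FPKM in DMSO libraries. DMSO library 0 is the exception in its group, and the adjusted p was 0.0570 with all libraries and 0.0136 without that library. Wee1, a cell cycle kinase, had 0.367, 1.42 and 1.91 FPKM in UNC569 libraries, against 0.5, 0.27 and 0.228 FPKM in DMSO libraries and did not pass (adjusted p = 0.0806), but the adjusted p was 0.0132 without UNC569 library 0. Usp2, a deubiquitinase, had 56.9, 58.7 and 67.3 FPKM in UNC569 libraries, against 47.5, 29.8 and 50.9 FPKM in DMSO libraries, and it did not pass (adjusted p = 0.102). Over the 6 fits that leave out 1 sham library each, 9 to 12 clock genes were higher and 3 or 4 lower. After rescaling by the median of ratios 10 were higher and 4 lower, and without DMSO libraries 0 and 2 together, the ones with liver transcripts, the counts were again 10 and 4. With the 6 sham libraries alone 8 were higher and 3 lower; Bhlhe40, Rora, Fbxl21 and Npas2 then had adjusted p-values of 0.0604 to 0.127, and Tef passed with 0.0431. Collection times are not known from the labels, and their part in these differences was not tested.

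Fixed clock motifs were looked up in RefSeq promoters (GRCm38.p6), in the 250 bases before each start, on both strands. Promoters of 19 of the 25 clock genes were matched. The D-box TTATGTAA was present in 0.819% of all 32851 promoters, the E-box CACGTG in 6.02% and the ROR element TAGGTCA in 2.23%. A gene was counted if any of its promoters held the motif, which gave 0.977%, 6.86% and 2.55% of 27025 genes. None of the 3 overlaps another in the windows printed. Of the 9 higher clock genes with a promoter, 1 held a D-box (Per3, with 2 matches) and 1 an E-box (Bhlhe41); of the 4 lower ones, 1 held an E-box (Cry1) and 1 a ROR element (Nfil3). Among those that did not pass, 3 of 5 held an E-box. The windows of Dbp, Nr1d1 and Arntl held none of these letters. The 4 promoters with a match are shown because their genes differed between the groups, with the match in capitals:
Per3 chr4:151044666-151044915 (minus strand): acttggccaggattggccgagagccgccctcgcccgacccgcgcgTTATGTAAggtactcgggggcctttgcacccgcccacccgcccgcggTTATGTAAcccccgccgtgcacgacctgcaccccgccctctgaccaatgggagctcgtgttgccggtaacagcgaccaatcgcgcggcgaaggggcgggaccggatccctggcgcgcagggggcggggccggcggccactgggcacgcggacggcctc
Bhlhe41 chr6:145865421-145865670 (minus strand): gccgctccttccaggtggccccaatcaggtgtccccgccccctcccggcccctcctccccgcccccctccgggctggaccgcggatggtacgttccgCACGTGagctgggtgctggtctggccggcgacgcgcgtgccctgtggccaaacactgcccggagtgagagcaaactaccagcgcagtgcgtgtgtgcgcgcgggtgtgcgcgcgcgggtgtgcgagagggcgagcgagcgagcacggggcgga
Cry1 chr10:85185055-85185304 (minus strand): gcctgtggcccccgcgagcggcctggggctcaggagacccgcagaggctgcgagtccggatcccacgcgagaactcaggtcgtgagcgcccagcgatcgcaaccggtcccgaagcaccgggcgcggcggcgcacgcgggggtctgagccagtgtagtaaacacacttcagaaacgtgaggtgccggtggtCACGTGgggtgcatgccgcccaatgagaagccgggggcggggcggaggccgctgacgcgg
Nfil3 chr13:52981040-52981289 (minus strand): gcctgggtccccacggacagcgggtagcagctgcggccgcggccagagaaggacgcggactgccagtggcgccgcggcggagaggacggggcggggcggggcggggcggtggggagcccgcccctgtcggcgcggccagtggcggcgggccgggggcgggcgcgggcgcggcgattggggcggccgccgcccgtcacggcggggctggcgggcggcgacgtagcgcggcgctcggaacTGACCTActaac
The matches begin 205 and 158 bases before the start in Per3, 153 in Bhlhe41, 60 in Cry1 and 12 in Nfil3, where the ROR element reads on the opposite strand. A match is a description of the letters and not a bound site.

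In obstructed kidney none of the 24 clock genes passed in either direction, against 0.248% and 1.05% of all genes there. Dbp had 33.2, 72.3 and 223 FPKM (lowest, median and highest) with UNC569 and 46.5, 76.8 and 101 FPKM with DMSO, and its difference was 0.14 (adjusted p = 0.883). Arntl had 0.681, 3.003 and 3.28 FPKM (lowest, median and highest) with UNC569 and 1.66, 1.96 and 2.08 FPKM with DMSO, with a difference of 0.13 (adjusted p = 0.809). The response in sham kidney exceeded that in obstructed kidney for 11 clock genes and was below it for 4, against 13.4% and 6.17% of all genes, with 2.86 for Dbp (adjusted p = 0.00621) and -1.97 for Arntl (adjusted p = 0.00288). The median level of Dbp in each group of obstructed kidney lay between those of the 2 sham groups.

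In sham liver Dbp had 46.9, 109 and 106 FPKM with UNC569 and 62, 118 and 25.5 FPKM with DMSO, and in sham lung 300.3, 295 and 266 FPKM with UNC569 and 316, 309.6 and 368 FPKM with DMSO. Arntl had 2.93, 1.62 and 0.709 FPKM with UNC569 and 1.22, 1.62 and 2.53 FPKM with DMSO in sham liver and 1.17, 0.679 and 1.09 FPKM with UNC569 and 0.915, 1.12 and 0.934 FPKM with DMSO in sham lung. The groups overlap in liver for both genes and in lung for Arntl, and no clock gene passed in either organ. Median differences of the list were 0.07 over 23 genes in liver and -0.09 over 24 genes in lung. The difference between organs was not tested, since tables were normalized separately.

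**Figure D3:**
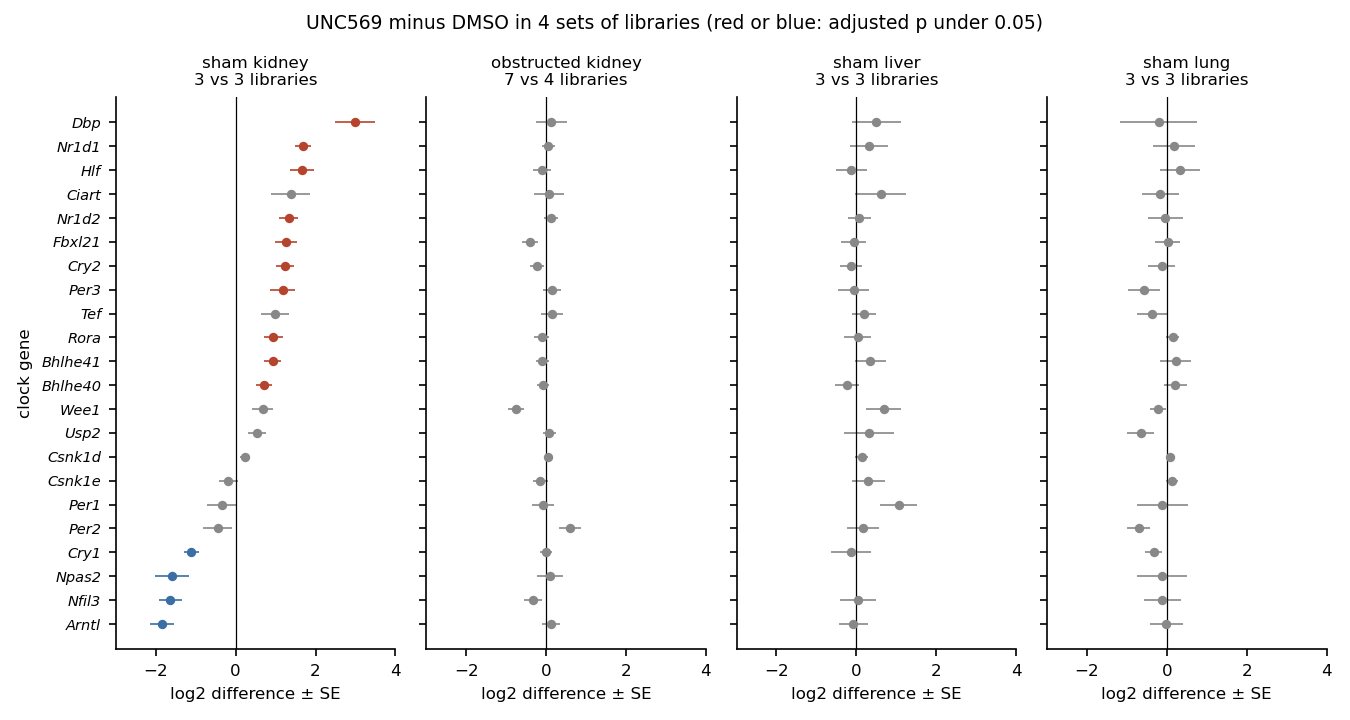
Log2 difference ± SE (UNC569 minus DMSO) of 22 clock genes in sham kidney, obstructed kidney, sham liver and sham lung, with genes past the adjusted p threshold in colour. In sham kidney 10 are red and 4 blue, and the other 3 panels have none in colour.

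Of the 5 TAM receptor and ligand genes 1 passed, near the 19.3% of all genes that passed in either direction. Mertk (ENSMUSG00000014361, GRCm38 chromosome 2, 128698956 to 128802894, plus strand) had 17, 16.2 and 17.3 FPKM in UNC569 libraries, against 14.2, 14.4 and 10.5 FPKM in DMSO libraries. The UNC569 libraries lay above the DMSO libraries by a small margin, and the difference did not pass (log2 0.35 ± 0.19, adjusted p = 0.208). Axl, the second TAM receptor gene, had 8.16, 7.53 and 3.72 FPKM in UNC569 libraries, against 11.1, 15.2 and 10.1 FPKM in DMSO libraries. It was lower past the threshold (log2 -0.85 ± 0.26, adjusted p = 0.0287), and the adjusted p was 0.154 without UNC569 library 2, 0.129 without DMSO library 1, 0.125 with the 6 sham libraries alone, 0.0667 after correction for GC content and length and 0.0555 without DMSO libraries 0 and 2 together. Tyro3 had 0.81, 1.37 and 1.42 FPKM in UNC569 libraries, against 1.28, 2.37 and 1.5 FPKM in DMSO libraries, with overlapping groups. The ligand genes Gas6 and Pros1 averaged 158 ± 8.49 FPKM with UNC569 and 172 ± 21.6 FPKM with DMSO, and 5.74 ± 1.5 FPKM with UNC569 and 8.01 ± 0.857 FPKM with DMSO (SD, n = 3 each), and neither passed (adjusted p = 0.606 and 0.315). In obstructed kidney Gas6 was higher with UNC569 by 0.49 (adjusted p = 0.0405), and the responses differed by -0.62 (adjusted p = 0.0270).

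Of 14 genes of heat shock chaperones and temperature-dependent proteins, 7 were lower and 2 higher with UNC569, against 6.05% and 13.3% of all genes, with a median difference of -0.63. The higher count was 1 without UNC569 library 0, UNC569 library 2, DMSO library 1 or DMSO library 2, and the lower count was 6 to 8 over all alternatives. Hspb1, a small heat shock protein that protects actin (ENSMUSG00000004951, GRCm38 chromosome 5, 135887919 to 135889563, plus strand), had 24.2, 25.6 and 27.4 FPKM in UNC569 libraries, against 155, 126 and 213 FPKM in DMSO libraries. The DMSO mean was 6.4 times that of UNC569 libraries, and its p was the smallest in the whole comparison (log2 -2.60 ± 0.16, adjusted p = 9.53e-08). Hsph1, a co-chaperone of HSP70, had 24.4, 17.6 and 18.3 FPKM in UNC569 libraries, against 77, 49.9 and 79.2 FPKM in DMSO libraries (log2 -1.71 ± 0.19, adjusted p = 1.83e-04). Hspa1b, the inducible HSP70, had 11.3, 16.5 and 14.5 FPKM in UNC569 libraries, against 104, 43.7 and 145 FPKM in DMSO libraries (log2 -2.56 ± 0.36, adjusted p = 4.01e-04). Its near-identical copy Hspa1a had 11.3, 16.2 and 16.3 FPKM in UNC569 libraries, against 106, 46.1 and 159 FPKM in DMSO libraries, and reads of the pair may have been shared in counting. The constitutive Hspa8, Hsp90ab1 and the co-chaperone Bag3 were also lower, Hsp90ab1 with a difference of -0.53 and an adjusted p of up to 0.138 when 1 library was left out (UNC569 library 0 or 1, or DMSO library 2). Dnajb1, Hsp90aa1, Hspa4l, Hspd1 and Hspe1 did not pass.

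The 2 members that were higher are RNA-binding proteins known to be induced by mild cold. Cirbp had 114, 81.4 and 109 FPKM in UNC569 libraries, against 38.3, 37.6 and 36.2 FPKM in DMSO libraries (log2 1.40 ± 0.20, adjusted p = 4.24e-04). Rbm3 had 44.3, 28.5 and 31.6 FPKM in UNC569 libraries, against 24.2, 16.6 and 19.3 FPKM in DMSO libraries. Rbm3 was higher by 0.76 (adjusted p = 0.0323), with an adjusted p of up to 0.131 when 1 library was left out (UNC569 library 0 or 2, or DMSO library 1 or 2) and of 0.0654 under rescaling by the median of ratios and 0.0842 after correction for GC content and length. In chaperone genes DMSO libraries 0 and 2 stood above DMSO library 1 for Hspb1, Hspa1a, Hspa1b and Hsph1, and these are the libraries with liver transcripts. Without them Hspb1, Hsph1, Hspa1b and Cirbp kept their calls, with adjusted p-values of up to 0.0338 over all alternatives. In obstructed kidney no gene of the list passed, against 1.3% of all genes there in either direction. The responses differed for 9 of the 14. Of these 7 were negative, against 6.17% of all genes, and 2 positive, near the 13.4% of all genes.

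Of 16 genes of the unfolded protein and integrated stress responses, 9 were lower with UNC569 and none higher, against 6.05% and 13.3% of all genes, with a median of -0.66. The lower count was 8 to 10 when 1 library was left out and 6 without DMSO libraries 0 and 2 together. These pathways raise chaperone supply in the endoplasmic reticulum and dampen translation. Sdf2l1, a component of the lumenal chaperone complex, had 15.5, 22.1 and 17.3 FPKM in UNC569 libraries, against 82.4, 67.5 and 110.2 FPKM in DMSO libraries (log2 -2.17 ± 0.26, adjusted p = 2.16e-04). Ddit3, the transcription factor CHOP, had 28.6, 22.7 and 21.6 FPKM in UNC569 libraries, against 131, 61.6 and 158 FPKM in DMSO libraries (log2 -2.12 ± 0.28, adjusted p = 2.80e-04). Atf4, which controls amino acid response genes, had 93.9, 82.5 and 66.1 FPKM in UNC569 libraries, against 171, 169.7 and 182 FPKM in DMSO libraries (log2 -1.11 ± 0.15, adjusted p = 3.65e-04). Creld2, a protein of the endoplasmic reticulum, had 4.59, 4.98 and 5.16 FPKM in UNC569 libraries, against 18.7, 17.3 and 20.7 FPKM in DMSO libraries (log2 -1.75 ± 0.26, adjusted p = 5.19e-04). In each of these 4 genes the highest UNC569 library was below the lowest DMSO library. DMSO library 1 was the lowest of its group in each, least clearly for Atf4, and DMSO libraries 0 and 2 are those with liver transcripts. The list's summed level was 2838, 2125 and 3033 FPKM in DMSO libraries 0, 1 and 2, and 1317 to 1420 FPKM with UNC569. Hspa5, which encodes the lumenal HSP70 BiP and was chosen after its values were seen, had 168, 163 and 169 FPKM in UNC569 libraries, against 625, 449.6 and 676 FPKM in DMSO libraries (log2 -1.78 ± 0.28, adjusted p = 7.13e-04). Manf, Xbp1, Chac1 and Pdia4 were lower too, Pdia4 with an adjusted p of up to 0.103 when 1 library was left out (UNC569 library 1 or 2, or DMSO library 0 or 2).

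Targets shared with amino acid stress did not all follow. Asns had 2.16, 1.61 and 1.6 FPKM in UNC569 libraries, against 2.48, 2.18 and 1.38 FPKM in DMSO libraries, and Trib3 had 1.15, 1.06 and 1.56 FPKM in UNC569 libraries, against 1.22, 1.68 and 2.27 FPKM in DMSO libraries. Both sets of values overlap, and neither passed (adjusted p = 0.807 and 0.571). Calr, Herpud1, Dnajb9, Hsp90b1 and Sesn2 did not pass either. Over the alternatives run, 6 to 10 of the 16 were lower and 0 higher, with 6 lower without DMSO libraries 0 and 2 together. In obstructed kidney none passed, against 1.3% of all genes there in either direction. The responses differed for 9 genes, all negative, against 6.17% of all genes.

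Fixed stress motifs were looked up in the same promoter windows. The heat shock element GAANNTTC, in which N is any base, was present in 6.69% of the 32851 promoters and 7.73% of 27025 genes. It was held by 3 of the 5 lower heat shock genes with a promoter (Hspb1, Hspa1a and Hspa1b). It was also present in 2 of 4 that did not pass (Hspd1 and Hspe1). The endoplasmic reticulum stress element, which is CCAAT and CCACG with 9 bases between them, was present in 0.113% of promoters and 0.13% of genes. It was held by 2 of 8 lower genes of the unfolded protein list (Creld2 and Hspa5) and by 2 of 7 that did not pass (Calr and Hsp90b1). The 2 motifs do not overlap in these windows. Promoters of 4 lower genes are shown, with the matches in capitals:
Hspb1 chr5:135887669-135887918 (plus strand): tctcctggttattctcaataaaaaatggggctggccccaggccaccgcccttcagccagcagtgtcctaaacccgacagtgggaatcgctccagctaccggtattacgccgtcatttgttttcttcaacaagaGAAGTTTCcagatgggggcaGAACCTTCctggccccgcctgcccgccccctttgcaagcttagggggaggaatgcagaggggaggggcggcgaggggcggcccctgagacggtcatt
Hspa1a chr17:34972157-34972406 (minus strand): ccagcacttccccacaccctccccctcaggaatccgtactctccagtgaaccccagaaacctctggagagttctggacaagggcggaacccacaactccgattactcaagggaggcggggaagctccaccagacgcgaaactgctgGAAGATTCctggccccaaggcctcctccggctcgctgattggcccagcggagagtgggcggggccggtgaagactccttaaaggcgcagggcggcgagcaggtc
Creld2 chr15:88819396-88819645 (plus strand): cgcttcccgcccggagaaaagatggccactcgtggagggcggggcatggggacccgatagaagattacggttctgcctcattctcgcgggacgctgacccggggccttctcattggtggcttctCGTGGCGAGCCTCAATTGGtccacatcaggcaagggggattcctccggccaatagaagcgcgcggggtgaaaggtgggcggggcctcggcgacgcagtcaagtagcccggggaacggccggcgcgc
Hspa5 chr2:34771840-34772089 (plus strand): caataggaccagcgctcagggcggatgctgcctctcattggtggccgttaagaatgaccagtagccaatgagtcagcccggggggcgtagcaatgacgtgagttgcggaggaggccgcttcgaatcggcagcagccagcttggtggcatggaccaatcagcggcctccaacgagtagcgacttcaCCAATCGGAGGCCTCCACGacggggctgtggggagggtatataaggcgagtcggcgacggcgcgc
The matches begin 117 and 97 bases before the start in Hspb1, 104 in Hspa1a, 126 in Creld2 and 65 in Hspa5. The match in Creld2 is on the opposite strand of the gene.

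All 12 endothelial genes tested were lower with UNC569, against 6.05% of all genes, and all 12 had groups that do not overlap, against 12.2%. Their median difference was -1.10 and their summed level 173 to 316 FPKM with UNC569 and 594 to 755 FPKM with DMSO. Plvap, which forms the diaphragms of fenestrated capillaries, had 68.2, 105 and 39.2 FPKM in UNC569 libraries, against 192, 223 and 257 FPKM in DMSO libraries (log2 -1.75 ± 0.29, adjusted p = 0.00105). Emcn, an endothelial sialomucin, had 16.4, 14.4 and 7.73 FPKM in UNC569 libraries, against 38.6, 48.6 and 42.8 FPKM in DMSO libraries (log2 -1.74 ± 0.30, adjusted p = 0.00133). Eng, a TGF-beta co-receptor, had 45.5, 47.7 and 20.9 FPKM in UNC569 libraries, against 87.9, 151 and 133 FPKM in DMSO libraries (log2 -1.73 ± 0.32, adjusted p = 0.00186). UNC569 library 2 was the lowest library of the 6 in each of these genes. The angiopoietin receptor gene Tek and the VEGF receptor genes Kdr and Flt1 differed by -1.31, -1.11 and -1.10 (adjusted p = 0.00343, 0.00568 and 0.00441). In bulk tissue fewer cells of a type and less RNA per cell cannot be told apart.

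The calls of Cdh5, Esam, Ehd3, Pecam1 and Tie1 were each lost without UNC569 library 2 and without DMSO library 1, and some without other libraries too, so that 7 to 11 of the 12 remained lower past the threshold when 1 library was left out. The count was 6 with the 6 sham libraries fitted alone and 5 without DMSO libraries 0 and 2 together, while the median ran from -1.27 to -0.89 over all alternatives. In obstructed kidney no endothelial gene passed, against 1.3% of all genes there in either direction. The responses differed for 6 of 12, all negative, against 6.17% of all genes. The median GC content of the list was 52.2%, against 50.2% over all protein-coding genes tested, and after correction for GC content and length 9 were lower.

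Macrophage and antigen-presentation genes that passed were lower with UNC569. Of 16 macrophage genes tested, 6 were lower and 0 higher (median -0.65), against 6.05% and 13.3% of all genes. The lower count was 4 without UNC569 library 2 or DMSO library 1 and 2 with the 6 sham libraries alone, and among the calls lost in all 3 of these fits were those of Tyrobp and Fcgr3 (adjusted p = 0.0986 to 0.206). The summed level was 102 to 169.9 FPKM with UNC569 and 221 to 259.8 FPKM with DMSO. The complement gene C1qa, which macrophages make, had 21.4, 27.4 and 12.6 FPKM in UNC569 libraries, against 46.9, 59.9 and 64.5 FPKM in DMSO libraries (log2 -1.49 ± 0.24, adjusted p = 7.53e-04). Its partners C1qb and C1qc were also lower, with differences of -1.18 and -1.18 (adjusted p = 0.00445 and 0.00119). Of 13 antigen-presentation genes, 4 were lower and 0 higher, against 6.05% and 13.3% of all genes. All 4 are of class II or its chaperone. When 1 library was left out, 3 to 5 were lower and 0 to 1 higher. With the 6 sham libraries alone 1 was lower, in a fit that called 382 genes lower. The 4 include the invariant chain Cd74. Cd74 had 103, 123 and 62.8 FPKM in UNC569 libraries, against 184, 327 and 253 FPKM in DMSO libraries. Its difference was log2 -1.41 ± 0.29 (adjusted p = 0.00344). Mfge8, a bridging protein that links dying cells to phagocytes, had 40.2, 41 and 28.4 FPKM in UNC569 libraries, against 69.2, 82.5 and 90.4 FPKM in DMSO libraries (log2 -1.13 ± 0.18, adjusted p = 8.93e-04). It belongs to a list of 16 tested genes of dying-cell uptake outside the TAM family, of which 7 were lower and 1, Abca1, was higher, against 6.05% and 13.3% of all genes. The 7 include C1qa, C1qb and C1qc, counted above among macrophage genes, and the lower count was 4 without UNC569 library 2 or DMSO library 2 and 3 with the 6 sham libraries alone. The immunoglobulin genes Igkc and Igha, made by plasma cells, were lower, with differences of -2.59 and -2.63 (adjusted p = 0.00287 and 0.00290).

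Smooth muscle and matrix genes were lower where they passed. Acta2, smooth muscle actin, had 15.7, 14.4 and 13.1 FPKM in UNC569 libraries, against 70.4, 50.9 and 63.6 FPKM in DMSO libraries. Its groups were far apart, but its spread over all kidney libraries was wide (log2 -2.01 ± 0.55, adjusted p = 0.0184), and the adjusted p was 0.0577 without UNC569 library 2 and 0.0557 without DMSO library 2. Of 25 matrix and fibroblast genes 3 were lower (Acta2, Col6a1 and Fbln1), against 6.05% of all genes, and 16 had groups that do not overlap in the lower direction, against 12.2%, with a median of -0.80. The lower count was 1 without UNC569 library 2 or DMSO library 2 and 0 without DMSO libraries 0 and 2 together, but 8 after rescaling by the median of ratios and 12 with a replicate block. Col6a1 missed the threshold in 4 of the 6 fits that leave out 1 library (adjusted p = 0.0551 to 0.205). Injury markers were lower in 7 of 18, against 6.05% of all genes, and higher in 0. The 7 include the fibrinogen genes Fga and Fgb, which hepatocytes make, and Fgb differed by -0.02 without DMSO libraries 0 and 2 (adjusted p = 1). The lower count was 4 without DMSO library 2, 3 without DMSO libraries 0 and 2 together and 2 with the 6 sham libraries alone. The summed level of the list was 1124 to 1250 FPKM with UNC569 and 1011 to 1161 FPKM with DMSO. Among them the keratin gene Krt19 had 1.08, 4.6 and 3.88 FPKM in UNC569 libraries, against 5.04, 16.4 and 8.92 FPKM in DMSO libraries (log2 -1.40 ± 0.35, adjusted p = 0.0105, and 0.0648 without DMSO library 1). Anxa2, a membrane-binding annexin, had 10.5, 10.7 and 7.43 FPKM in UNC569 libraries, against 19.1, 29.6 and 25.8 FPKM in DMSO libraries (log2 -1.29 ± 0.22, adjusted p = 0.00125). The tubular injury marker Lcn2 had 1.72, 4.3 and 1.74 FPKM in UNC569 libraries, against 18, 5.07 and 9.36 FPKM in DMSO libraries, which puts all UNC569 libraries below all DMSO libraries (log2 -1.64 ± 0.37, adjusted p = 0.00655, and 0.237 without DMSO libraries 0 and 2 together).

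**Figure D4:**
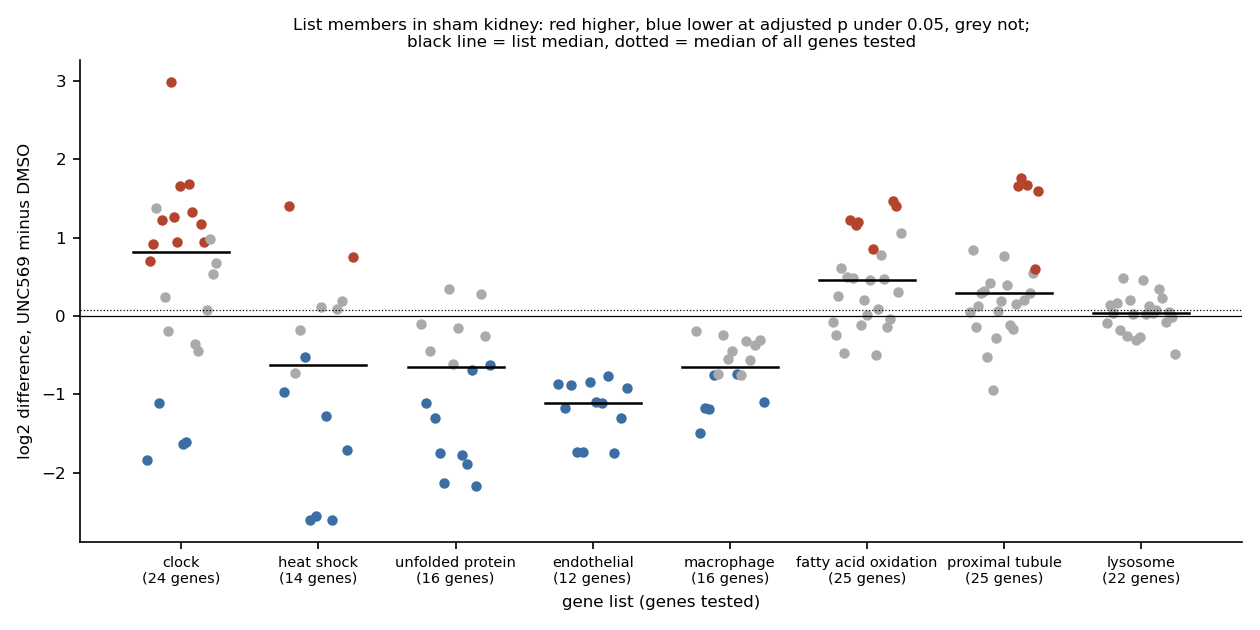
Log2 difference (UNC569 minus DMSO) of each tested member of 8 gene lists in sham kidney, with black lines for list medians and a dotted line for the median of all genes. All 12 endothelial members are blue and below 0, lysosomal members scatter around 0 with none in colour, and clock members lie on both sides.

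Fatty acid oxidation genes were higher where they passed: 6 of 25 were higher and 0 lower, against 13.3% and 6.05% of all genes, with a median of 0.46. The higher count was 3 without DMSO library 1 and 5 or 6 when any other single library was left out. Cpt1a, which admits long-chain fatty acids into mitochondria, had 179.7, 173 and 196 FPKM in UNC569 libraries, against 79.4, 74.5 and 81.8 FPKM in DMSO libraries (log2 1.21 ± 0.19, adjusted p = 6.98e-04). Acot2, a mitochondrial thioesterase, had 39.5, 40.3 and 41.1 FPKM in UNC569 libraries, against 17.7, 13.2 and 19.6 FPKM in DMSO libraries (log2 1.23 ± 0.22, adjusted p = 0.00153). Pdk4, which diverts pyruvate from oxidation, had 12.2, 17.1 and 15.9 FPKM in UNC569 libraries, against 5.27, 5.5 and 4.31 FPKM in DMSO libraries (log2 1.41 ± 0.32, adjusted p = 0.00701). Angptl4, a lipoprotein lipase inhibitor, had 75.5, 95.9 and 94.7 FPKM in UNC569 libraries, against 44.5, 24.7 and 53 FPKM in DMSO libraries (log2 1.16 ± 0.27, adjusted p = 0.00814, and 0.0501 without DMSO library 1). In all 4 genes each UNC569 library exceeded each DMSO library. Decr1, a reductase for unsaturated fatty acids, was also higher (adjusted p = 0.0210), with up to 0.0917 without UNC569 library 0, DMSO library 1 or DMSO library 2. After rescaling by the median of ratios 5 of the 25 were higher.

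Of 14 glucocorticoid-responsive genes tested, 4 were higher (Klf9, Mt2, Pdk4 and Angptl4) and 4 lower (Sgk1, Cdkn1a, Sult1a1 and Lcn2), against 13.3% and 6.05% of all genes. The list's median was -0.15 and ran from -0.40 to 0.42 over all alternatives. The counts were 2 and 5 without DMSO library 1, 2 and 1 with the 6 sham libraries alone and 4 and 0 without DMSO libraries 0 and 2 together. Klf9, a Krüppel-like factor that glucocorticoids induce and that cycles daily in several mouse tissues, had 39.7, 51.8 and 60.3 FPKM in UNC569 libraries, against 11, 5.95 and 11.1 FPKM in DMSO libraries (log2 2.35 ± 0.33, adjusted p = 4.13e-04). Sult1a1, a sulfotransferase, had 7.22, 9.34 and 8.12 FPKM in UNC569 libraries, against 17.2, 14.8 and 20.9 FPKM in DMSO libraries (log2 -1.005 ± 0.17, adjusted p = 0.00129). Klf9 and Sult1a1 differ in sign, and neither set of libraries overlaps. Cdkn1a missed the threshold in 4 of the 6 fits that leave out 1 library (0.0562 to 0.0651). Among 21 immediate early genes 2 were lower (Klf2 and Atf3), near the 6.05% of all genes, and 0 higher; Klf2 had an adjusted p of 0.0554 without UNC569 library 2 and 0.0795 after correction for GC content and length, and Atf3 had up to 0.0978 without UNC569 library 2 or DMSO library 2.

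Of 25 proximal tubule genes, 5 were higher and 0 lower with UNC569, against 13.3% and 6.05% of all genes. All 5 encode transporters, as do most genes of the list. The higher count was 3 without UNC569 library 0 or UNC569 library 2. It was 2 without DMSO library 1, a fit in which 1074 of the 15338 genes were higher. Slc9a3, the sodium-hydrogen exchanger NHE3, had 4.35, 3.06 and 4.59 FPKM in UNC569 libraries, against 0.573, 0.757 and 0.573 FPKM in DMSO libraries (log2 1.60 ± 0.22, adjusted p = 2.92e-04). Slc4a4, the basolateral sodium bicarbonate cotransporter, had 152, 132 and 184 FPKM in UNC569 libraries, against 66.8, 31.6 and 52.9 FPKM in DMSO libraries (log2 1.66 ± 0.29, adjusted p = 0.00131). Slc6a19, a neutral amino acid transporter, had 200.2, 127 and 172 FPKM in UNC569 libraries, against 53.1, 46.9 and 52.6 FPKM in DMSO libraries (log2 1.67 ± 0.45, adjusted p = 0.0159), with adjusted p-values of 0.0524 without UNC569 library 0 and 0.0552 without DMSO library 1. Slc7a8 and the lactate transporter Slc5a12 were higher by 0.61 and 1.76 (adjusted p = 0.0152 and 0.0167). Each lost its call without DMSO library 1 or UNC569 library 2 (0.0511 to 0.0875), Slc5a12 also without UNC569 library 0 (0.0573), and Slc7a8 had 0.0911 after rescaling by the median of ratios.

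The list's median was 0.30 and ran from 0.11 to 0.42 over all alternatives. Its summed level was lower with UNC569, and 1 gene set that sum. Kap, an androgen-controlled transcript of mouse proximal tubule, had 40004, 36549 and 36121 FPKM in UNC569 libraries, against 56531, 55879 and 49582 FPKM in DMSO libraries. The groups do not overlap, but the gene did not pass with 17 libraries sharing 1 spread (adjusted p = 0.509) or with the 6 sham libraries alone (adjusted p = 0.293). Of 11 thick ascending limb genes, 2 were higher (Egf and Tmem52b), near the 13.3% of all genes, and 0 lower. The higher count was 1 to 2 when 1 library was left out. Egf had 222, 242 and 225 FPKM in UNC569 libraries, against 87.7, 111 and 98.5 FPKM in DMSO libraries (log2 1.21 ± 0.27, adjusted p = 0.00552). Umod had 366, 1099 and 818 FPKM in UNC569 libraries, against 323, 370.2 and 456 FPKM in DMSO libraries, with overlapping groups and no call (adjusted p = 0.214). Of 12 principal cell genes only Avpr2, the vasopressin receptor, passed, against 19.3% of all genes in either direction. Avpr2 had 16.5, 19.98 and 16.5 FPKM in UNC569 libraries, against 26.1, 40.4 and 36.5 FPKM in DMSO libraries (log2 -0.90 ± 0.20, adjusted p = 0.00654). Of 12 intercalated cell genes and 22 lysosomal genes none passed, against the same 19.3%. Of 26 genes of cholesterol and fatty acid synthesis 4 were higher, near the 13.3% of all genes, and 4 lower, against 6.05%. The higher count was 2 without UNC569 library 1, UNC569 library 2 or DMSO library 1. Fdps, the farnesyl diphosphate synthase, had 12.9, 8.38 and 7.63 FPKM in UNC569 libraries, against 28.4, 20.7 and 29.2 FPKM in DMSO libraries (log2 -1.37 ± 0.23, adjusted p = 0.00106). Sc5d, a late sterol desaturase, had 29.1, 26.2 and 27.2 FPKM in UNC569 libraries, against 15.9, 9.6 and 12.8 FPKM in DMSO libraries (log2 1.07 ± 0.19, adjusted p = 0.00133).

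Among the 12 largest rises with a group mean of at least 5 FPKM and groups that do not overlap, Dbp and Klf9 are described above. Igfbp1, a binding protein of insulin-like growth factors, had 27.5, 19.5 and 26.3 FPKM in UNC569 libraries, against 4.88, 1.69 and 3.25 FPKM in DMSO libraries (log2 2.63 ± 0.25, adjusted p = 2.94e-05). Slc35f3, a predicted thiamine transporter, had 12.6, 13 and 13 FPKM in UNC569 libraries, against 1.3, 2.49 and 1.66 FPKM in DMSO libraries (log2 2.32 ± 0.25, adjusted p = 1.43e-04). Mia2, which acts in protein export from the endoplasmic reticulum, had 5.77, 12.5 and 14.9 FPKM in UNC569 libraries, against 1.25, 1.19 and 1.18 FPKM in DMSO libraries (log2 2.36 ± 0.32, adjusted p = 2.92e-04). UNC569 library 0 was the lowest of its group for Mia2 and still above every DMSO library. Ndfip1, an adaptor of ubiquitin ligases, had 63.4, 112 and 115 FPKM in UNC569 libraries, against 20.5, 10.8 and 19.6 FPKM in DMSO libraries (log2 2.45 ± 0.44, adjusted p = 0.00172). Ugt3a1, a glycosyltransferase, had 50.3, 153 and 149.8 FPKM in UNC569 libraries, against 25.4, 10.5 and 27.7 FPKM in DMSO libraries (log2 2.37 ± 0.60, adjusted p = 0.0120), with adjusted p-values of 0.0533 without UNC569 library 2, 0.0664 without DMSO library 1 and 0.177 with a pseudocount of 0.1.

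The other 5 of the 12 rises were transcripts without an assigned role here. Gm26697, a long noncoding RNA opposite Slc27a2, had 94.8, 177 and 183 FPKM in UNC569 libraries, against 27.5, 13 and 31 FPKM in DMSO libraries (log2 2.65 ± 0.50, adjusted p = 0.00210). 1810049J17Rik, 4930535I16Rik and Gm26566 overlap Golph3, Rragc and Klhl9 on the opposite strand, and Gm7862 is a processed pseudogene within Esr2. Their differences were 2.46, 2.73, 2.42 and 3.07, and that of Gm7862 had adjusted p-values of 0.0584 without DMSO library 1 and 0.0566 without DMSO library 2. Libraries do not mark strand, so reads of these overlaps cannot be told apart from those of the partner gene.

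Of the 12 largest falls, 5 were plasma proteins made by hepatocytes. Hpx, the haem carrier, had 0.244, 0 and 0 FPKM in UNC569 libraries, against 36.4, 1.12 and 41.1 FPKM in DMSO libraries. Ahsg, fetuin-A, had 0.231, 0.954 and 0.6 FPKM in UNC569 libraries, against 60.8, 1.15 and 73.4 FPKM in DMSO libraries. Only DMSO libraries 0 and 2 were high, and DMSO library 1 was under 2 FPKM for both genes. Without DMSO libraries 0 and 2 the differences were -0.98 for Hpx (adjusted p = 0.313), -0.45 for Ahsg (adjusted p = 0.737), -0.48 for Alb (adjusted p = 0.693) and -0.77 for Serpina3k (adjusted p = 0.4998). Ahsg and Alb also lost their calls without DMSO library 2 alone (adjusted p = 0.0612 and 0.0562). Vtn, vitronectin, had 0, 0.411 and 0.192 FPKM in UNC569 libraries, against 14, 4.33 and 12.1 FPKM in DMSO libraries (log2 -3.09 ± 0.49, adjusted p = 7.53e-04, and 0.0503 without both). Of 8 tested genes of the hepatocyte list 6 were lower with all libraries, against 6.05% of all genes, and 1 to 6 when 1 library was left out. Besides Ahsg and Alb these were Apoa1, Fgb, Apoa2 and Apoh. Without DMSO libraries 0 and 2 their differences were -0.08, -0.02, -1.57 and -1.20. The list's summed level was 46.3 to 56.1 FPKM with UNC569 and 76.0 to 416 FPKM with DMSO.

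Among the other falls, Gadd45g, a growth arrest and stress gene, had 85, 54.1 and 44 FPKM in UNC569 libraries, against 473, 564 and 710.2 FPKM in DMSO libraries (log2 -3.27 ± 0.29, adjusted p = 1.93e-05). Ptpru, a receptor tyrosine phosphatase, had 5.39, 3.66 and 1.48 FPKM in UNC569 libraries, against 29.6, 47.4 and 30.9 FPKM in DMSO libraries (log2 -3.11 ± 0.47, adjusted p = 5.45e-04). Cyp26b1, which degrades retinoic acid, had 2.04, 0.411 and 0.265 FPKM in UNC569 libraries, against 11.1, 11.9 and 11.8 FPKM in DMSO libraries (log2 -2.84 ± 0.45, adjusted p = 7.66e-04). For Gadd45g, Ptpru and Cyp26b1, DMSO library 1 was as high as or higher than at least 1 other DMSO library, and without DMSO libraries 0 and 2 the calls were kept. Gm20481 overlaps Hspa1a on the opposite strand and had 7.62, 6.1 and 8.43 FPKM in UNC569 libraries, against 77.9, 38.8 and 104 FPKM in DMSO libraries, so its reads and those of Hspa1a cannot be told apart. Gm15222, opposite Bmp4, was listed at 0 in the 3 UNC569 libraries and had 8.31, 11.4 and 2.48 FPKM in DMSO libraries. Its call was lost without DMSO library 1 (adjusted p = 0.0951), and also without UNC569 library 1, UNC569 library 2 or DMSO library 0. Gm13889 had 0, 3.05 and 9.73 FPKM in UNC569 libraries, against 16, 25.3 and 38.4 FPKM in DMSO libraries (log2 -2.89 ± 0.61, adjusted p = 0.00437, and 0.0502 without DMSO libraries 0 and 2).

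Transcripts of tissue around the kidney differed between libraries in another way. The adipocyte gene Adipoq had 10.2, 7.19 and 5.86 FPKM in UNC569 libraries, against 0, 6.74 and 0 FPKM in DMSO libraries, so that it was listed at 0 in DMSO libraries 0 and 2 and was as high in DMSO library 1 as in UNC569 libraries. Plin1 and Cidec showed the same pattern of libraries. Of 6 adipocyte genes tested 3 were higher (Adipoq, Plin1 and Cidec), against 13.3% of all genes. Their differences were 2.11, 1.09 and 1.81 with the 6 sham libraries, but 0.15, 0.38 and 0.35 without DMSO libraries 0 and 2. The summed adipocyte level was 171 to 257 FPKM with UNC569 and 106 to 214 FPKM with DMSO, and its part in the metabolic differences above was not tested. The summed haemoglobin level was 469 to 924 FPKM with UNC569 and 523 to 1410.2 FPKM with DMSO.

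Differences in sham kidney were related to the base composition and length of transcripts. Among 13546 protein-coding genes the median difference was 0.34 in the lowest of 5 equal bins of GC content of the longest transcript and -0.16 in the highest bin. In the lowest bin 21.8% of genes were higher and 1.51% lower, and in the highest bin 4.43% were higher and 11.3% lower. By length the median was -0.11 in the shortest of 5 bins and 0.26 in the longest. Across genes, Spearman's rho of the difference was -0.361 with GC content and 0.246 with length, and genes are not independent replicates. In sham liver the GC medians ran from -0.08 to 0.05 and in sham lung from 0.09 to -0.06, and in obstructed kidney they stayed between -0.04 and -0.01.

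With each library corrected for GC content and length, 2162 genes were higher and 763 lower, and 2175 of the 2961 calls were kept in the same direction. After that correction 15 clock genes were higher and 4 lower, 7 heat shock genes lower, 9 unfolded protein genes lower and 9 endothelial genes lower. Fatty acid oxidation had 7 higher and proximal tubule 6 higher. Median GC content was 52.2% in the clock list and 52.0% in the unfolded protein list. Median length was 3976 bases in the clock list, 3590 in the endothelial and 3444 in the proximal tubule list, against 3281 over all protein-coding genes tested. It was 2797.5 in the heat shock list, 2395 in fatty acid oxidation, 2077.5 in the unfolded protein list and 1530 in the macrophage list. The source of the relation to GC content was not tested.

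**Figure D5:**
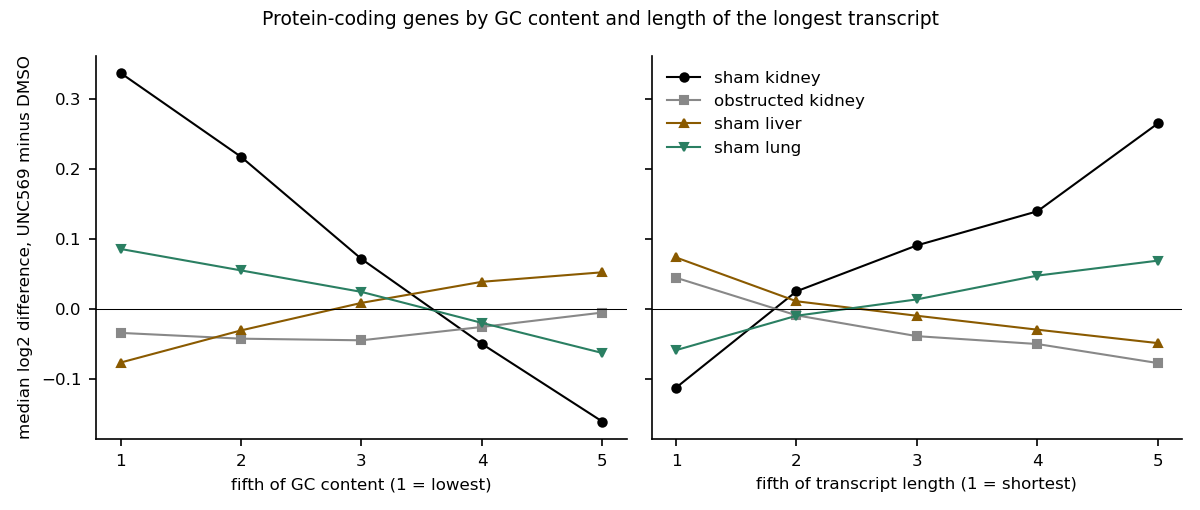
Median log2 difference (UNC569 minus DMSO) of protein-coding genes in 5 bins of GC content (left) and of transcript length (right), for sham kidney, obstructed kidney, sham liver and sham lung. In sham kidney the median falls from 0.34 to -0.16 across GC bins and goes up from -0.11 to 0.26 across length bins, and the other 3 lines stay between -0.08 and 0.09.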

How the data were processed

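RNA from whole kidney was sequenced after purification of mRNA with a kit that does not mark strand (TruSeq RNA v2, 100-base reads), per the labels' protocols. FPKM values per gene were deposited by the authors in 1 table per organ; the submitters' processing notes name FastQC, Trim Galore, STAR and edgeR without versions and the builds mm10 and hg38, and which tool made the FPKM values is not given in the sources used here. FPKM keep no read counts here, so depth and counting error are unknown and count models were not used. Differences of log2(FPKM + 1) were fitted with limma 3.58.1 in R 4.3.3 (empirical Bayes with an intensity trend) over all 17 kidney libraries with 1 term per group, on 15338 genes with at least 1 FPKM in 3 or more libraries, with Benjamini-Hochberg adjustment over all of them and a threshold of 0.05. The single spread assumes that sham and obstructed libraries vary alike. Liver (16 libraries) and lung (18 libraries) were fitted in their own tables. On data simulated for the sham comparison (15338 genes), 50% of 100 genes changed 2-fold and 89% of 100 changed 4-fold were called, with 9 false calls. The simulated noise was normal with 1 spread per gene for all groups, and only genes above 5 FPKM were changed. These figures therefore do not show how calls behave where sham and obstructed libraries vary differently or where single libraries stand apart.

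The members and the 40 gene lists were chosen with earlier results of these data known. Genes named are the measured clock and TAM genes, the 12 largest rises and falls among calls with non-overlapping libraries and a group mean of at least 5 FPKM, up to 4 genes per other list with the smallest p, and markers of libraries that stand apart; other members are named with their list's counts and were chosen after their values were seen. A few genes enter the counts of their lists but are not reported by name here. Of 38277 identifiers 94.9% matched GENCODE vM21 (GRCm38), and promoters were taken from RefSeq (GRCm38.p6). Alternatives were another pseudocount, no filter, median-of-ratios scaling, no trend, a replicate block, the 6 sham libraries alone and leaving out each library; a correction for GC content and length and leaving out sham DMSO libraries 0 and 2 together were added after the data were seen. Figures were drawn with matplotlib 3.10.9.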

Additional observations from a re-analysis of the deposited data

Results flagged for a closer look

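The UNC569 difference in sham kidney set against that in obstructed kidney passed the threshold for 3000 genes (19.6%), tested as the difference of the 2 responses in 1 limma fit. Of 27 clock and TAM genes described by name, 15 passed. The 12 largest rises and falls were chosen for their difference in sham kidney, which is part of this test, so their values are a description and no count of them is given. Values are the log2 difference in sham kidney minus that in obstructed kidney. Among clock genes the response in sham kidney was above that in obstructed kidney for Dbp (2.86), Hlf (1.75), Fbxl21 (1.67), Nr1d1 (1.63), Cry2 (1.46), Wee1 (1.43), Nr1d2 (1.21), Rora (1.05), Bhlhe41 (1.01) and Bhlhe40 (0.78). It was below it for Cry1 (-1.11), Nfil3 (-1.31), Npas2 (-1.70) and Arntl (-1.97). Among the other genes the value was positive for 4930535I16Rik (3.65), Ndfip1 (3.64), 1810049J17Rik (3.57), Gm7862 (3.30), Gm26697 (3.21), Gm26566 (3.21), Ugt3a1 (3.21), Klf9 (3.00), Mia2 (2.84), Slc35f3 (2.75) and Igfbp1 (2.72). It was negative for Gas6 (-0.62), Gm13889 (-2.63), Igha (-2.88), Gm20481 (-3.24), Gadd45g (-3.27), Cyp26b1 (-3.29), Vtn (-3.36), Ptpru (-3.45), Gm15222 (-3.47), Serpina3k (-4.00), Alb (-4.42), Hpx (-4.68) and Ahsg (-4.92). The plasma protein genes Hpx, Ahsg, Alb, Serpina3k and Vtn in this group carry the high values of sham DMSO libraries 0 and 2.

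A rule for 1 library far from the rest was applied to 27 clock and TAM genes in obstructed kidney with UNC569 (7 libraries) and with DMSO (4 libraries). Of these 54 sets of values 4 had such a library, and chance alone sets off about 1 in 20. The same libraries serve every gene, so the sets are not independent. In obstructed kidney with UNC569, 1 library stood below the rest for Bhlhe40 (77.2 FPKM), 1 above the rest for Nr1d2 (23.4 FPKM) and 1 above the rest for Wee1 (1.07 FPKM). In obstructed kidney with DMSO, 1 library stood above the rest for Fbxl21 (2.24 FPKM). Groups of 3, which include every group of sham kidney, are too small for this rule.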

How the results depend on the processing

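Main counts of changed genes were 2961 in sham kidney, 199 in obstructed kidney, 3000 for the difference of the responses, and 0 in liver and lung. In sham kidney the count was 3035 with a pseudocount of 0.1, 2759 without a filter, 2860 with median-of-ratios scaling, 2938 without a trend and 2925 with the GC and length correction, but 1283 with the 6 sham libraries alone and 1451 without DMSO libraries 0 and 2 together, fits with fewer libraries. Leaving out 1 library gave 1595 to 3124 genes in sham kidney, 1961 to 3303 for the difference, 7 to 323 in obstructed kidney, 0 in liver and 0 to 272 in lung. In obstructed kidney the count was 46 with a pseudocount of 0.1, 322 with the GC and length correction and 73 without sham DMSO libraries 0 and 2. Without a filter 2 genes passed in liver and 1 in lung. The cause of these shifts was not tested.

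Column numbers are not the sample numbers of the labels. Deviations of same-numbered sham libraries correlated at -0.003, -0.002 and 0.106, and those of differently numbered ones at -0.098 to 0.088. With 3 libraries per group these values cannot settle whether the numbers pair the libraries. The main fit assumed no pairing. A replicate block by these numbers gave 3825 genes in sham kidney, with 2837 of the 2961 calls kept in the same direction, and 110 in obstructed kidney. Genes that turned their sign had missed the threshold in each case: Csnk1e at 0.046 with the GC and length correction and -0.39 to 0.18 over the fits without 1 library, Gas6 at 0.15 with that correction and Per1 at 0.31 without DMSO libraries 0 and 2. Of 141 calls among named and list genes, 17 to 39 missed the threshold without 1 library, 2 with a pseudocount of 0.1, 2 without a trend, 2 with the block, 11 without a filter, 13 with median-of-ratios scaling and 21 with the GC and length correction. With unknown depth no limit can be given for genes listed at 0.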
